A study of Mus musculus with 8 samples.

Results

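The FOS, JUN and EGR immediate early genes are 10 genes that cells switch on within minutes of a stimulus: the AP-1 subunits Fos, Fosb, Jun, Junb, Jund and Atf3, the zinc finger factors Egr1, Egr2 and Egr3, and Ier2. They were picked by gene symbol out of 25157 genes whose reads were recovered from the deposited bulk RNA-sequencing of mouse microglia. No rule on their values was used, but earlier results of these data were known when they were chosen. All 10 passed the filter on low values. The 8 libraries fell into 5 groups. KO CPZ CD11c low (1 library), FL CPZ CD11c high (1 library) and FL CPZ CD11c low (1 library) came from mice on 0.2% cuprizone (CPZ), which chelates copper and is toxic to oligodendrocytes, so that myelin is lost. KO ND (2 libraries) and FL ND (3 libraries) came from mice on normal diet. KO is PRMT1fl/fl with cx3r1cre-ert2, a tamoxifen-inducible Cre under the Cx3cr1 promoter, which is active in microglia and in other brain macrophages. FL is the floxed genotype (PRMT1Ifl/fl in the labels) with no Cre named, so the Cre insertion and the loss of PRMT1, a protein arginine methyltransferase, cannot be told apart. All mice were C57BL/6, both genotypes received tamoxifen, and the groups carry a time label of 5 weeks (CPZ) or 11 weeks (normal diet). The labels put the mice at 4 to 6 weeks of age when fed cuprizone, which does not match the study's methods, where tamoxifen at a similar age came before the diet. Cells were dissociated enzymatically and sorted on CD45 and CD11b, and in the CPZ groups also by surface CD11c (Itgax). Diet therefore cannot be told apart from the time label or the CD11c gate. Each CPZ group is 1 library, so its spread was taken from the normal-diet libraries. No label says that the libraries came from separate animals, so p-values measure the spread between libraries only, and in bulk RNA fewer cells expressing a gene and less RNA per cell cannot be told apart.

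Immediate early genes need no new protein to be transcribed. Kinases of the ERK, JNK and p38 routes activate factors that already sit on their promoters, chiefly SRF with its ETS partners at the serum response element and CREB or ATF proteins at the cyclic AMP response element. The FOS and JUN proteins pair through leucine zippers into AP-1, which binds the sites of many inflammatory genes. The EGR proteins bind GC-rich sites through zinc fingers and have the corepressors NAB1 and NAB2, of which they induce NAB2. In microglia these genes mark recent signalling, and they are also the genes most readily induced while a brain is digested and sorted. The study used no inhibitor of transcription during isolation.

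The bases just upstream of the start site can hold control elements, and those of 4 genes are printed here. They end at the base before the transcript start given with the deposited data. The sequences are from RefSeq on GRCm38.p6, and capitals mark the letters TGACG or CGTCA (the core of the cyclic AMP response element), TGACNTCA (the variant at which JUN and ATF proteins pair), TATAAA and the serum response element core.
Fos, chr12:85473770-85473889, + strand: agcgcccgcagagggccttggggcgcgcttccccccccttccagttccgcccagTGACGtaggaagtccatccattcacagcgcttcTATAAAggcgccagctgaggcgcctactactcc
Jun, chr4:95052223-95052342, - strand: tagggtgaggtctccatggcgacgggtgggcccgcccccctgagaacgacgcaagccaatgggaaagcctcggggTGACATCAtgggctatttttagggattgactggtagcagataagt
Junb, chr8:84978749-84978868, - strand: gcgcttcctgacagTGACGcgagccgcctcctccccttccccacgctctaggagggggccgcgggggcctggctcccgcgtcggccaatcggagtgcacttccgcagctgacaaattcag
Egr2, chr10:67537749-67537868, + strand: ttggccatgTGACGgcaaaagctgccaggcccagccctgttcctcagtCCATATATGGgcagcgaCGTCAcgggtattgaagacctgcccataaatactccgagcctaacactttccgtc

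Promoters of 7 members were searched (Fos, Fosb, Jun, Junb, Jund, Egr2 and Atf3). Egr1 was left out beforehand, whether or not it had a match, and no entry was matched for Egr3 and Ier2. Within 250 bases upstream, TGACG on either strand was in 5 of these 7 (Fos, Fosb, Junb, Egr2 and Atf3), against 17.8% of all 32851 promoters. The serum response element core was in 1 of 7 (Egr2), against 1.47% of all promoters, and TGACNTCA was in 1 of 7 (Jun), against 7.49%. TATAAA was in Fos (12.4% of all promoters), the EGR site GCGNGGGCG was in Fosb (4.7%), and the AP-1 site TGANTCA was in none (6.75%). These matches describe letters in a window and were not tied to any reading below. Sites more than 250 bases upstream could not be found, so a missing match does not show that a gene lacks the element.

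Library depth ran between 1579951 reads (FL CPZ CD11c high) and 3519969 reads (KO ND replicate 1). Values are given as normalised read counts, that is, reads divided by 1 size factor per library (median of ratios), and a gene was called where its adjusted p was under 0.05 and its fold beyond 2 in either direction (log2 fold over 1 in size; limma on log2 of the value plus 1, Benjamini-Hochberg over 11232 genes). Prmt1 had 81.0 in the KO CPZ library and 60.8 and 82.6 in the KO ND libraries, against 102 and 118 in the CD11c high and low FL CPZ libraries and 86.3, 91.8 and 91.0 in the FL ND libraries. All 3 KO libraries lay below all 5 FL libraries, but the drop in KO ND was not called (log2 fold -0.34 ± 0.17 SE, adjusted p = 0.611), and reads over the whole transcript only partly check a floxed deletion. The 10 microglia markers were read in every library. Markers of other cells varied: the summed value of 13 endothelial and mural genes was 1104 in KO CPZ low, 1309 in FL CPZ high and 1857 in FL CPZ low, against 613 to 672 in KO ND and 506 to 580 in FL ND. That of 9 neutrophil genes was 5.71 in KO CPZ low, 54.7 in FL CPZ high and 858 in FL CPZ low, against 257 to 358 in KO ND and 355 to 640 in FL ND. Their part in the results below was not tested.

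The 10 genes differed in how full their transcripts were with reads. The authors removed duplicate reads, so identical reads count once and reads per base have an upper limit: over the 11139 tested genes of at least 500 bases, none exceeded 0.919 reads per base in any library. Immediate early genes sat near that limit. Averaged over the 8 libraries, Junb had 0.789 reads per base (rank 3 of 11139), Jun 0.757 (rank 6), Fos 0.738 (rank 10), Egr1 0.715 (rank 11) and Atf3 0.700 (rank 13). Ier2 (0.50), Fosb (0.476) and Jund (0.467) were also among the 153 genes at 0.4 or more. Egr2 (0.126) and Egr3 (0.0354) were the 2 members far below it. For Fos the reads as counted were 1629 in KO CPZ low, 1212 in FL CPZ high, 1695 in FL CPZ low, 1647 and 1595 in KO ND, and 1630, 1395 and 1607 in FL ND. They differed by 1.40 times at most, although depth differed by 2.23 times, so the normalised values of Fos were highest in the shallowest library. The values of such genes are therefore also given after a correction for occupied positions, an alternative chosen after the data were seen.

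**Figure D1:**
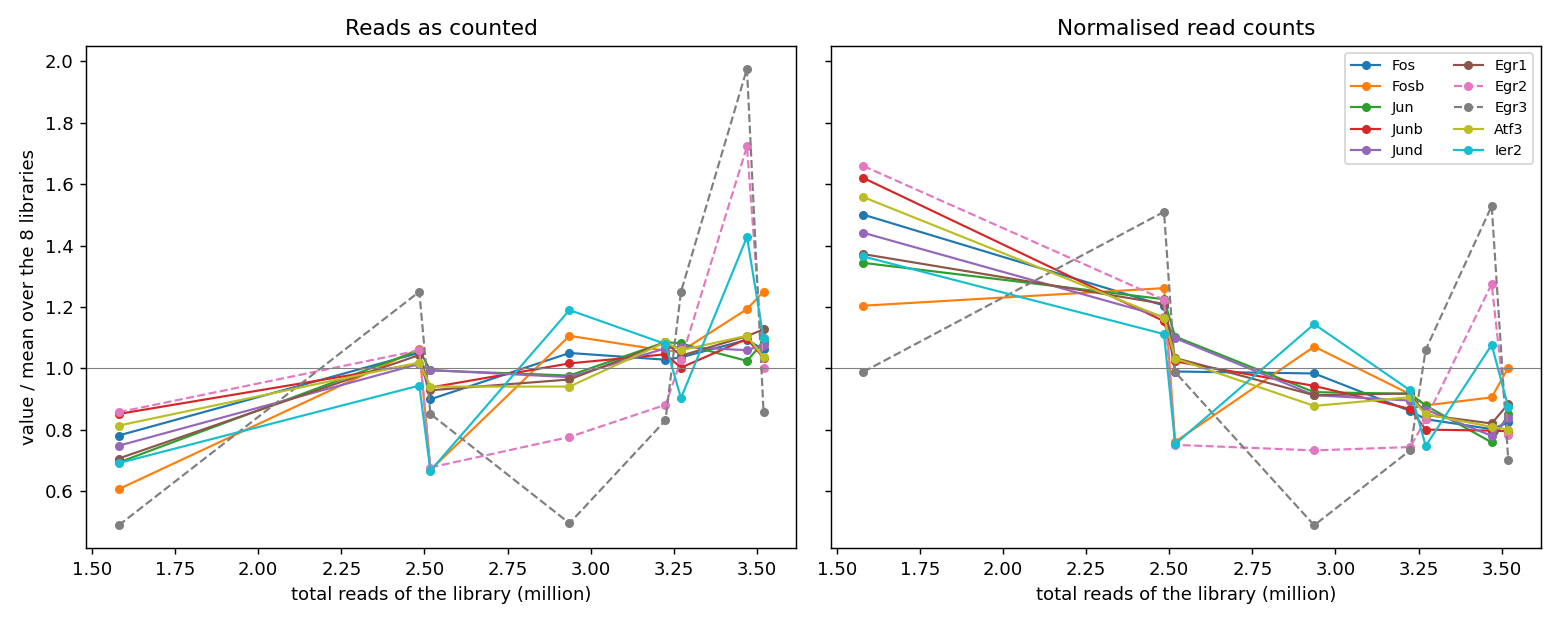
Reads as counted (left) and normalised read counts (right) of the 10 genes, each divided by its mean over the 8 libraries, against the total reads of the library. In the reads, most solid lines stay close to 1 beyond the shallowest library, and in the normalised counts they slope down with depth. Egr2 and Egr3 (dashed) depart most from the others in the deeper libraries, with Egr3 at 283 reads in FL CPZ CD11c low and 71 in KO CPZ CD11c low.

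Egr3 was the gene of this family whose values separated the genotypes, though its drop on normal diet was not called. Egr3 (chr14:70077317-70082613, + strand, GRCm38) encodes an EGR factor induced by calcium and ERK signals and best known from lymphocytes, muscle spindles and neurons. Its normalised count was 67.6 in KO CPZ low and 97.1 and 101.4 in KO ND, against 137 in FL CPZ high, 211 in FL CPZ low and 209, 137 and 147 in FL ND. All 3 KO libraries lay below all 5 FL libraries, an arrangement that 1.96% of the 11232 genes showed. Egr3 fell in KO CPZ low against FL CPZ low (log2 fold -1.63 ± 0.27 SE, adjusted p = 0.0198). It was the only one of the 10 genes called in that comparison, in which 1.2% of all genes were called lower. From the reads of these 2 libraries alone, 71 and 283, the scaled ratio was 0.320 (95% exact binomial interval 0.243 to 0.416, counting error only). Correction for occupied positions left the log2 fold at -1.65. The call was lost only without the filter on low values (adjusted p = 0.119; over all 17 alternatives the adjusted p ran between 0.00303 and 0.119). Other cells differed between the same 2 libraries: between KO CPZ low and FL CPZ low, 6 of 6 tested neutrophil markers, 6 of 12 endothelial and mural markers and 3 of 10 astrocyte markers were called lower, 7 of the 9 neutrophil markers were at 0 in KO CPZ low, and 0 of 10 microglia markers were called. Of 14 heat shock genes, 13 were below 0 and 1 was called lower.

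Egr2 (chr10:67537869-67542188, + strand), an EGR factor that directs myelination in Schwann cells and is induced in stimulated macrophages, was next. Its normalised count was 275 in KO CPZ low, against 623 in FL CPZ high and 479 in FL CPZ low. The normal-diet libraries had 294 and 279 in KO and 460, 282 and 313 in FL. The KO CPZ library was thus the lowest of the 8, though close to both KO ND libraries, and both FL CPZ libraries were the highest. Egr2 fell in KO CPZ low against FL CPZ high (log2 fold -1.18 ± 0.27 SE, adjusted p = 0.0271), a call lost only without the filter on low values (adjusted p = 0.199; range over the 17 alternatives 0.00139 to 0.199). In that comparison Egr3 was also called (-1.01 ± 0.27, adjusted p = 0.0471), 2 of 10 genes lower where 1.36% of all genes were, but this Egr3 call sat at both thresholds and was kept under 6 of 17 alternatives. Against FL CPZ low, Egr2 was at -0.80 ± 0.27 (adjusted p = 0.112) and was not called. KO and FL CPZ high differ in the CD11c gate as well as in genotype.

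**Figure D2:**
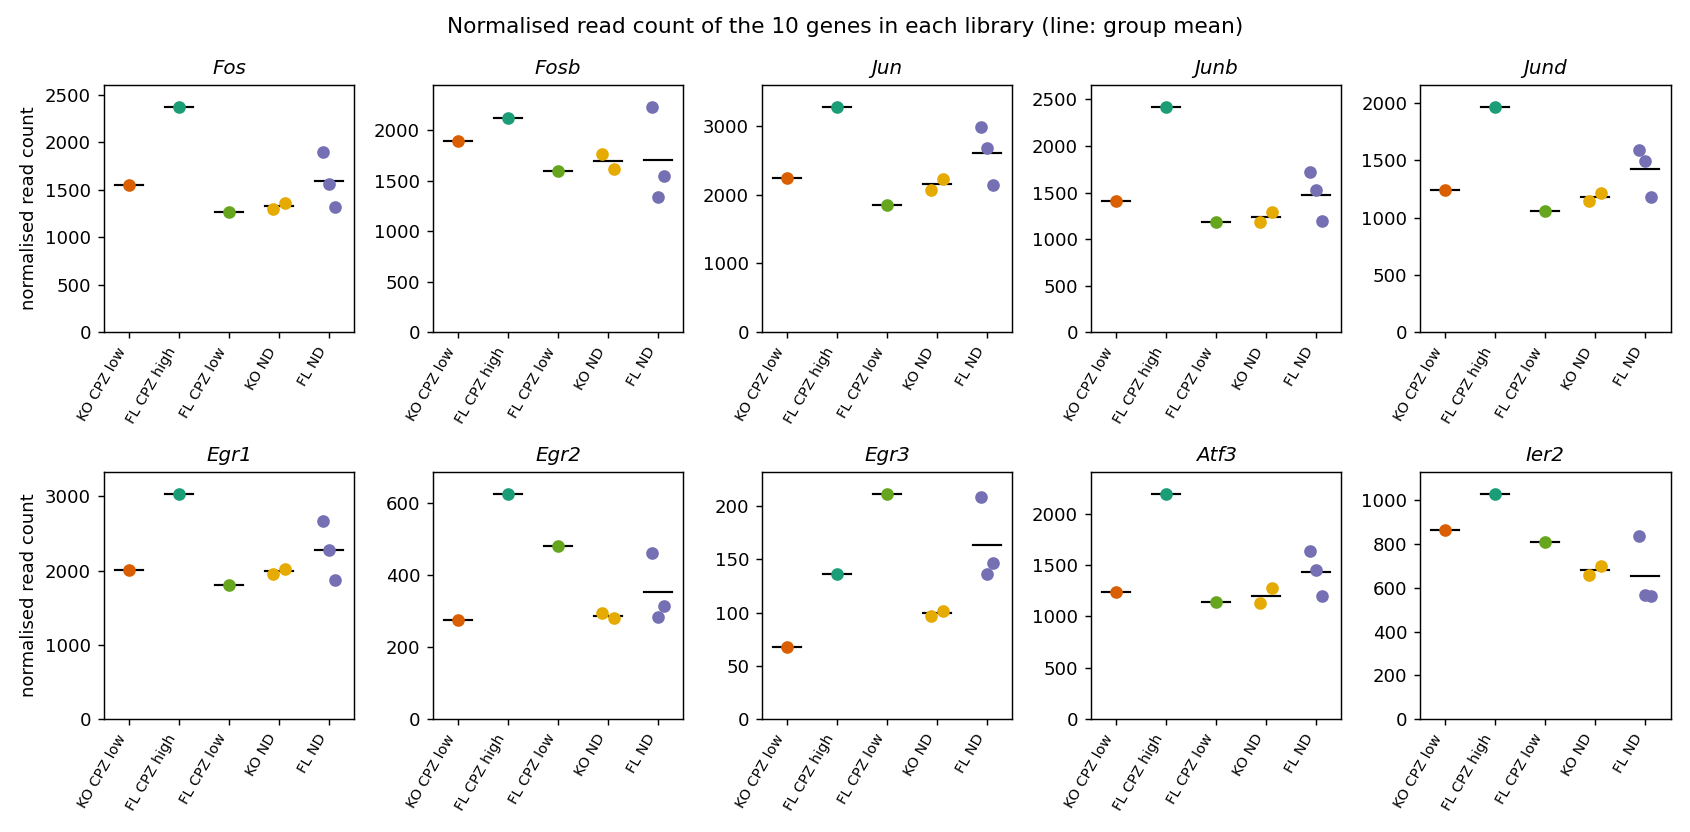
Normalised read count (vertical axis, from 0) of each of the 10 genes in every library, by group (KO CPZ CD11c low, FL CPZ CD11c high, FL CPZ CD11c low, KO ND, FL ND); points are libraries and lines are group means. Egr3 is lowest in the KO groups (67.6 in KO CPZ low), Egr2 is highest in the 2 FL CPZ groups (623 and 479), and Fos, Jun, Junb, Jund, Egr1 and Atf3 share 1 pattern with the FL CPZ high library on top.

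The other 8 genes, all at 0.4 or more mean reads per base, did not pass the test between KO CPZ low and FL CPZ low. Their log2 folds ran between 0.09 (Ier2) and 0.29 (Fos), all above 0, and 5 of the 8 stayed above 0 after the correction. Fos, the partner that gives AP-1 its transactivating strength, had 1552 in KO CPZ low and 1266 in FL CPZ low (log2 fold 0.29 ± 0.24). Jun, its usual partner and the main target of JNK, had 2244 and 1846 (0.28 ± 0.25). Egr1, the most abundant EGR factor, had 2015 and 1812 (0.15 ± 0.25). Among all tested genes at 0.6 or more reads per base, the median log2 fold of this comparison was 0.27 (middle 50% of genes 0.19 to 0.32), and among those at 0.4 to 0.6 it was 0.17 (0.05 to 0.27), against 0.03 over all 11232 genes. Egr1 and Atf3 (0.12) lay below the middle range of the first set. Against FL CPZ high the same 8 genes were at -0.17 (Fosb) to -0.83 (Atf3) with none called, and the median of the densest genes was -0.81.

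**Figure D3:**
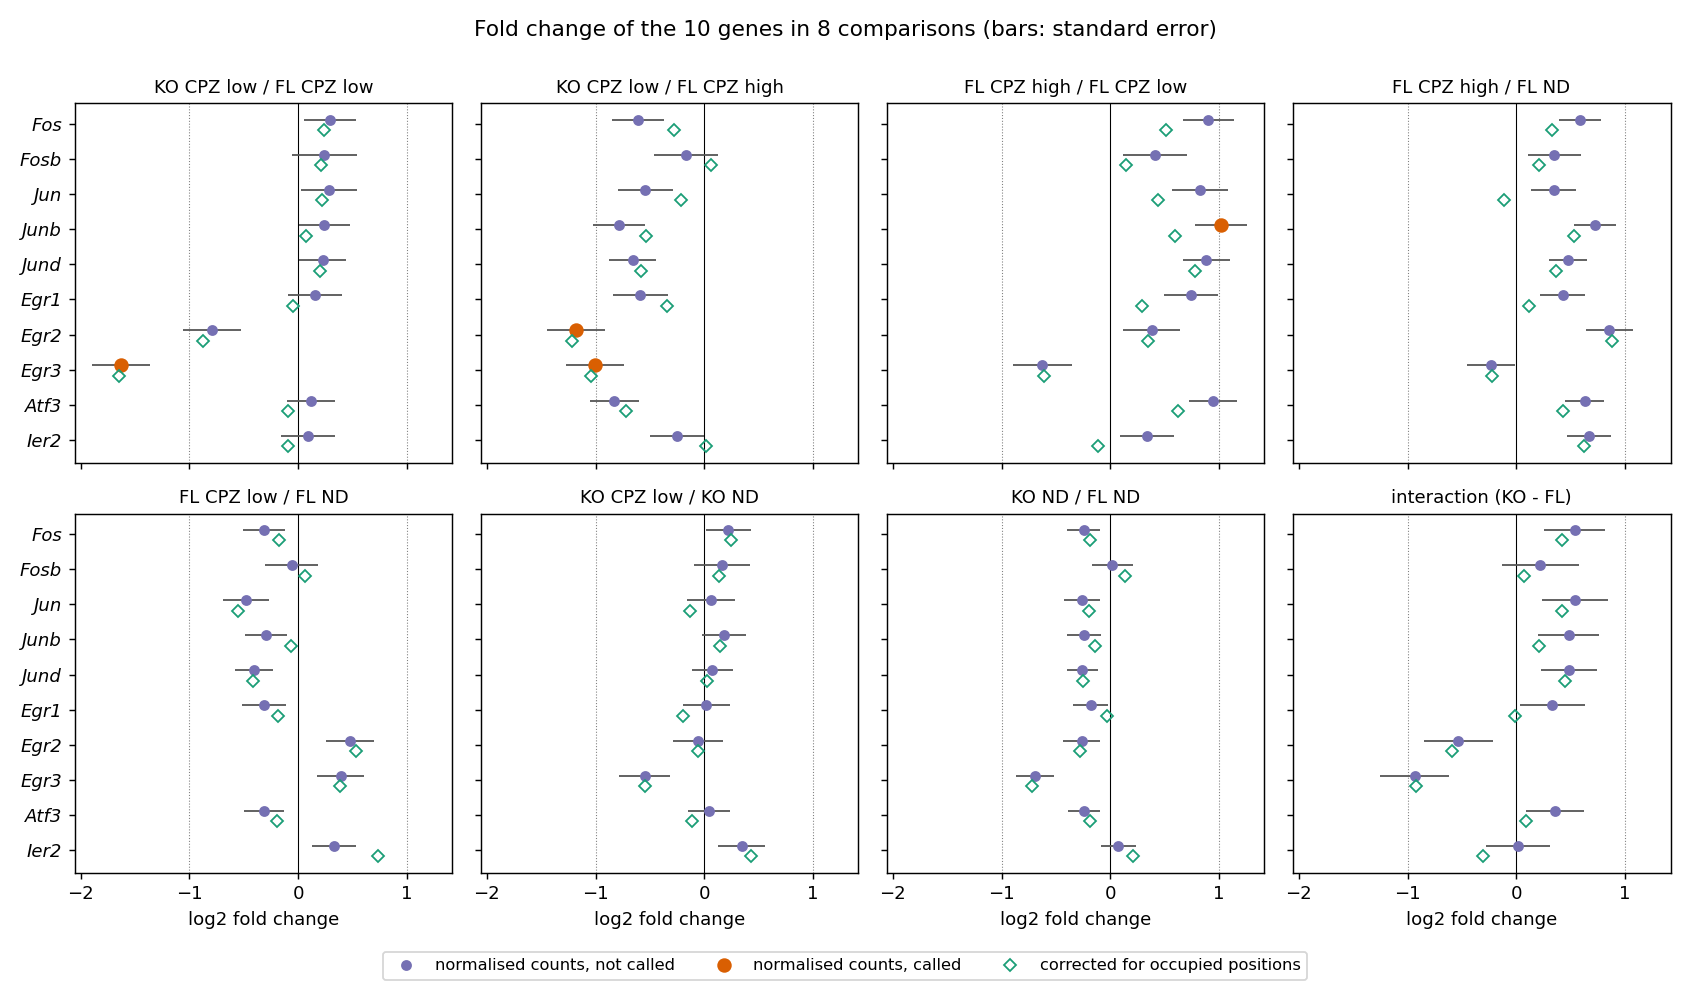
Log2 fold change of the 10 genes in 8 comparisons; filled points with bars are the values and standard errors from normalised counts (orange where called), open diamonds the values after correction for occupied positions, and dotted lines mark the fold threshold. Egr3 at -1.63 stands apart in KO CPZ low against FL CPZ low, while in FL CPZ high against FL CPZ low the diamonds of Fos, Jun, Junb and Egr1 lie well below their points.

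Within FL microglia on CPZ, CD11c high against CD11c low cells, 9 of the 10 genes were above 0 (median log2 fold 0.78) and 1, Junb, was called. Junb (chr8:84976909-84978748, - strand) encodes a JUN protein that restrains JUN in many settings. It had 2414 in FL CPZ high and 1188 in FL CPZ low (1.02 ± 0.24, adjusted p = 0.0435; 0.686% of all genes were called higher). Reads as counted ran the other way, 1236 and 1591. After correction for occupied positions the log2 fold of Junb was 0.60 (adjusted p = 0.228), and the call was kept under 9 of 17 alternatives, whose adjusted p ran between 0.000381 and 0.228. Atf3 (2190 and 1138) and Jund (1963 and 1063) had adjusted p of 0.0445 and 0.0496 but folds below the threshold, 0.94 ± 0.22 and 0.88 ± 0.22 on the log2 scale. Fos had 2368 and 1266 (0.90 ± 0.24, adjusted p = 0.0608). Egr3 alone was below 0, at 137 and 211 (-0.62 ± 0.27, adjusted p = 0.199). The shift followed read density over the whole table: the median log2 fold was -0.11 for genes at 0.01 to 0.05 reads per base, 0.16 at 0.1 to 0.2, 0.73 at 0.4 to 0.6 and 1.02 in the 33 genes at 0.6 or more, where 97.0% of genes were above 0. With the correction the last of these medians was 0.71. The CD11c high library is also the shallowest of the 8, so in this comparison depth and the CD11c gate cannot be told apart for the dense members.

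**Figure D4:**
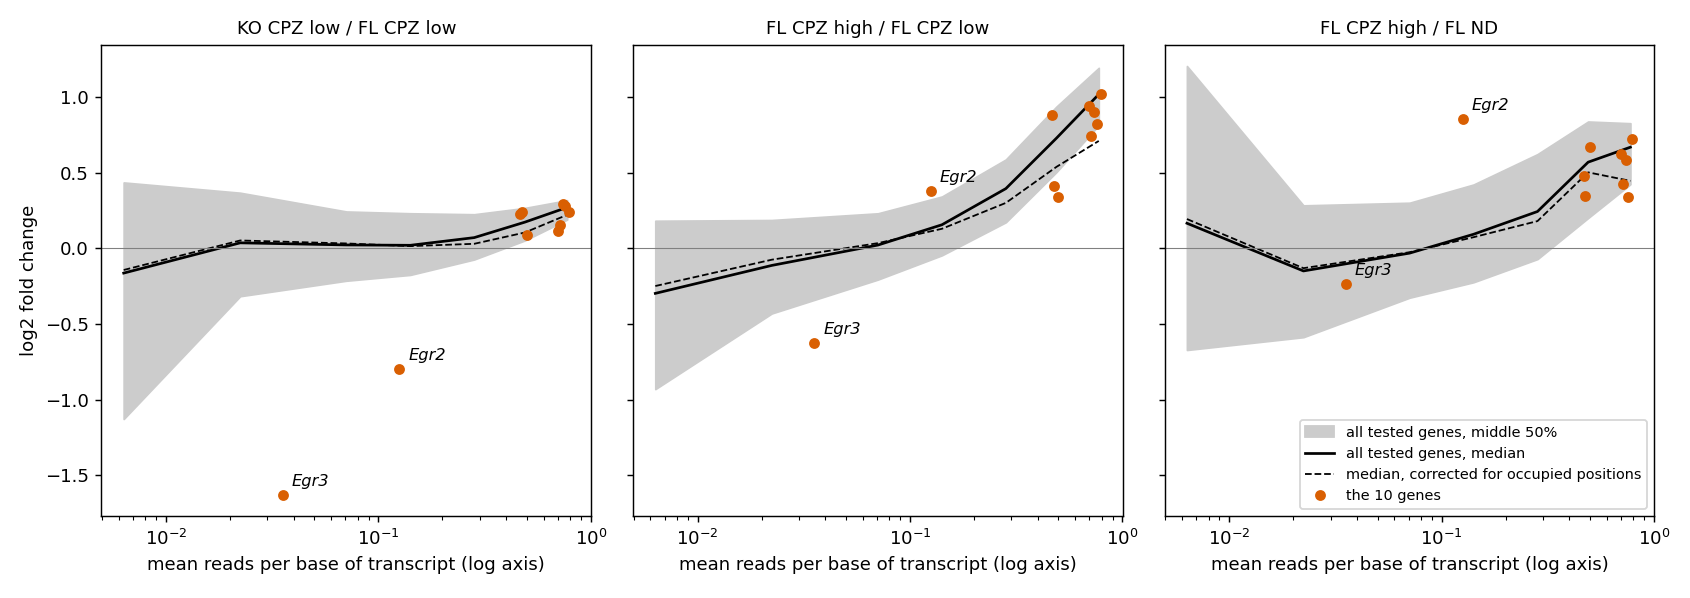
Log2 fold change against mean reads per base of transcript (log axis) in 3 comparisons; the solid line and grey band give the median and the middle 50% of all tested genes in bins, the dashed line the median after correction, and orange points the 10 genes. In FL CPZ high against FL CPZ low the median climbs to 1.02 in the densest bin and 8 of the 10 genes lie at that end, while Egr2 and Egr3 lie well away from the median in KO CPZ low against FL CPZ low.

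None of the 10 genes was called on CPZ in either genotype. Reads per base have an upper limit that can hide a rise in the 8 members at 0.4 or more. The missing calls therefore do not show that the RNA of these 8 was unchanged. In FL CPZ high against FL ND, 16.2% of all genes were called, and the median log2 fold was -0.01 over all genes. It was 0.57 at 0.4 to 0.6 reads per base and 0.67 at 0.6 or more, where 90.0% and 90.9% of genes were above 0. FL CPZ high is the shallowest library, so for the dense members depth cannot be told apart from diet or the CD11c gate. The 10 genes had a median of 0.53, and 9 of 10 genes were above 0. Of these, 5 had adjusted p under 0.05 at folds under the threshold: Egr2 (0.86 ± 0.22, adjusted p = 0.0108), Junb (0.72 ± 0.19, 0.0146), Atf3 (0.63 ± 0.18, 0.0205), Ier2 (0.67 ± 0.20, 0.0241) and Fos (0.59 ± 0.19, 0.0358). Genes higher at that adjusted p made up 19.7% of all genes. After the correction Egr2 was at 0.88, Ier2 at 0.62, Junb at 0.53, Atf3 at 0.43 and Fos at 0.33, and of these only Egr2 (adjusted p = 0.0129) was still under 0.05. Egr2 in FL CPZ high (623) lay above all 3 FL ND libraries (282 to 460). Without FL ND replicate 1, which had the highest Egr2 of the 3, it was called (1.06).

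In FL CPZ low against FL ND, 12.8% of genes were called, and the median log2 fold was -0.03 over all genes. It was -0.36 in the 33 genes at 0.6 or more reads per base, where 0% were above 0. At 0.4 to 0.6 it was -0.18. Of the 10 genes, 7 were below 0 (median -0.31). The lowest was Jun (1846 in FL CPZ low, against 2980, 2684 and 2138 in FL ND; -0.48 ± 0.21, adjusted p = 0.105) and the highest Egr2 (479, against 460, 282 and 313; 0.48 ± 0.22, adjusted p = 0.121). Ier2, a nuclear regulator induced by growth factors, had 811 in FL CPZ low and 838, 568 and 563 in FL ND (0.33 ± 0.20), and 0.74 after the correction (adjusted p = 0.0346). In KO CPZ low against KO ND, where 8.48% of genes were called, 8 of 10 genes were above 0 (median 0.07), and the size was largest for Egr3 (67.6 in KO CPZ low, against 97.1 and 101.4 in KO ND; -0.55 ± 0.23, adjusted p = 0.13). In KO CPZ low against KO ND, the median of tested genes was 0.15 at 0.6 or more reads per base and 0.14 at 0.4 to 0.6. Fosb, a FOS protein that pairs with JUN proteins as FOS does, had 1890 in KO CPZ low, 2125 in FL CPZ high and 1598 in FL CPZ low, against 1769 and 1616 in KO ND and 2226, 1343 and 1552 in FL ND. The 3 FL ND libraries alone spanned every other value of Fosb.

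On normal diet, KO against FL, 0 of the 10 genes and 0% of all genes were called by limma (966 genes at an unadjusted p under 0.05; edgeR called 0 and DESeq2 3). Of the 10 genes, 8 were below 0 (median -0.24, against -0.0036 for all genes). Egr3 was lowest, at 97.1 and 101.4 in KO ND and 209, 137 and 147 in FL ND, with no overlap (-0.69 ± 0.17, adjusted p = 0.414). Fos, Jun, Junb, Jund and Atf3 lay within -0.26 to -0.24, and the 33 densest genes had a median of -0.26, with 0% of them above 0. The 2 KO ND libraries were deeper than 2 of the 3 FL ND libraries. The interaction, the CPZ effect in KO CD11c low cells minus that in FL CD11c low cells, was called for none of the 10 genes while 0.721% of all genes were called lower. Egr3 was at -0.94 ± 0.32 (adjusted p = 0.182) and Egr2 at -0.53 ± 0.32 (adjusted p = 0.418).

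Per kilobase of transcript, the levels in FL ND fell into 3 tiers. Jun (816 ± 134 normalised reads per kilobase, SD, n = 3), Junb (804 ± 145), Fos (758 ± 140), Egr1 (742 ± 130) and Atf3 (725 ± 113) did not differ beyond their spread. Jund (494 ± 74.9), Fosb (453 ± 122) and Ier2 (431 ± 103) followed and overlapped each other. Egr2 (119 ± 32.0) and Egr3 (40.5 ± 9.66) were lowest and did not overlap each other or the rest. The tiers had the same order in KO CPZ low, with Egr2 at 92.9 and Egr3 at 16.7. The order within the top tier cannot be read, since all its members lie near the limit of reads per base. Jun overlaps the antisense gene Junos and Jund the antisense gene Gm11175, and the strand setting of the counting is not given in the sources used here, so reads of these pairs may be mixed.

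Over the 8 libraries, the members closest in pattern were Jun and Jund (root mean square difference of centred log2 values 0.049), Junb and Atf3 (0.057) and Fos and Junb (0.059). Fosb stood at 0.17 to 0.27 from every dense member, Egr2 at 0.30 or more and Egr3 at 0.41 or more from every other. Among non-members with a mean of at least 50, those near Fos included the integrin gene Itgb5 (0.04) and the phosphatase gene Dusp1 (0.06). Those near Egr1 included the glutamine synthetase gene Glul (0.05) and the antiproliferative gene Btg2 (0.06). These 4 genes have 0.417 to 0.656 reads per base.

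Other immediate early genes were called higher on CPZ in FL microglia. Of 39 tested other immediate early genes, 10 were called higher in FL CPZ low against FL ND (all genes 8.73%) and 11 in FL CPZ high against FL ND (9.04%), none lower. The called genes had 0.00379 to 0.291 reads per base, and of the 16 listed genes at 0.4 or more none was called in these comparisons. Markers of other cells were also higher in FL CPZ low against FL ND: 10 of 12 tested endothelial and mural and 7 of 10 astrocyte markers were called higher, the summed astrocyte markers were 2162 in FL CPZ low and 1099 to 1256 in FL ND, and the summed oligodendrocyte and progenitor markers were 2692 and 974 to 1300. Their part in these rises was not tested. Nr4a3, an orphan nuclear receptor of the immediate early class, had 453 in FL CPZ low and 273 in FL CPZ high, against 42.0, 29.1 and 35.2 in FL ND (3.66 ± 0.30 for low, adjusted p = 3.52e-05). Npas4, an activity-dependent factor of neurons, had 54 reads in FL CPZ low, 34 in FL CPZ high and 9 in KO CPZ low, against 0, 1 and 0 in FL ND. Nfil3 (2.81 ± 0.41) and Nr4a2 (2.77 ± 0.52) rose in FL CPZ low, and Plk2 (3.43 ± 0.39) and Ier5l (3.01 ± 0.58) rose in FL CPZ high. In KO CPZ low against KO ND, 2 of the 39 were called higher, Nfil3 (1.69 ± 0.43) and Plk2 (1.34 ± 0.41), where 5.1% of all genes were. The Plk2 call there was lost without either KO ND library and the Nfil3 call without KO ND replicate 1.

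Between genotypes on CPZ, 2 of these 39 genes were called, both lower. Nr4a3 (37.2 and 453; -3.57 ± 0.37, adjusted p = 0.00312) and Dusp2, a nuclear phosphatase that switches off ERK (188 and 558; -1.57 ± 0.26, adjusted p = 0.0191), fell in KO CPZ low against FL CPZ low, where 1.2% of all genes were called lower. Of the 39 genes 14 were above 0, and the median was 0.15 over the 16 dense genes and -0.67 over the 23 others. These 2 genes were also the ones called lower in the interaction, Nr4a3 at -4.41 ± 0.44 (adjusted p = 0.00448) and Dusp2 at -1.93 ± 0.31 (adjusted p = 0.0266). The Dusp2 interaction call was lost without FL ND replicate 2 or KO ND replicate 2. Against FL CPZ high, 5 of the 39 fell in KO CPZ low, where 1.36% of all genes did, and of these Nr4a3 (-2.85 ± 0.37), Plk2 (-1.95 ± 0.48), Dusp2 (-1.28 ± 0.26) and Gadd45b (-1.02 ± 0.16) changed most. The Gadd45b call was lost under TMM, a common total and quantile normalisation. The Plk2 call was lost without FL ND replicate 3 or without the filter on low values. The Nr4a3 and Dusp2 calls were lost only without that filter. In FL CPZ high against FL CPZ low, Zfp36 (1.21), Rhob (1.11) and Sgk1 (1.11) were called higher, all 3 at 0.581 to 0.888 reads per base, and all 3 calls were lost after the correction.

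**Figure D5:**
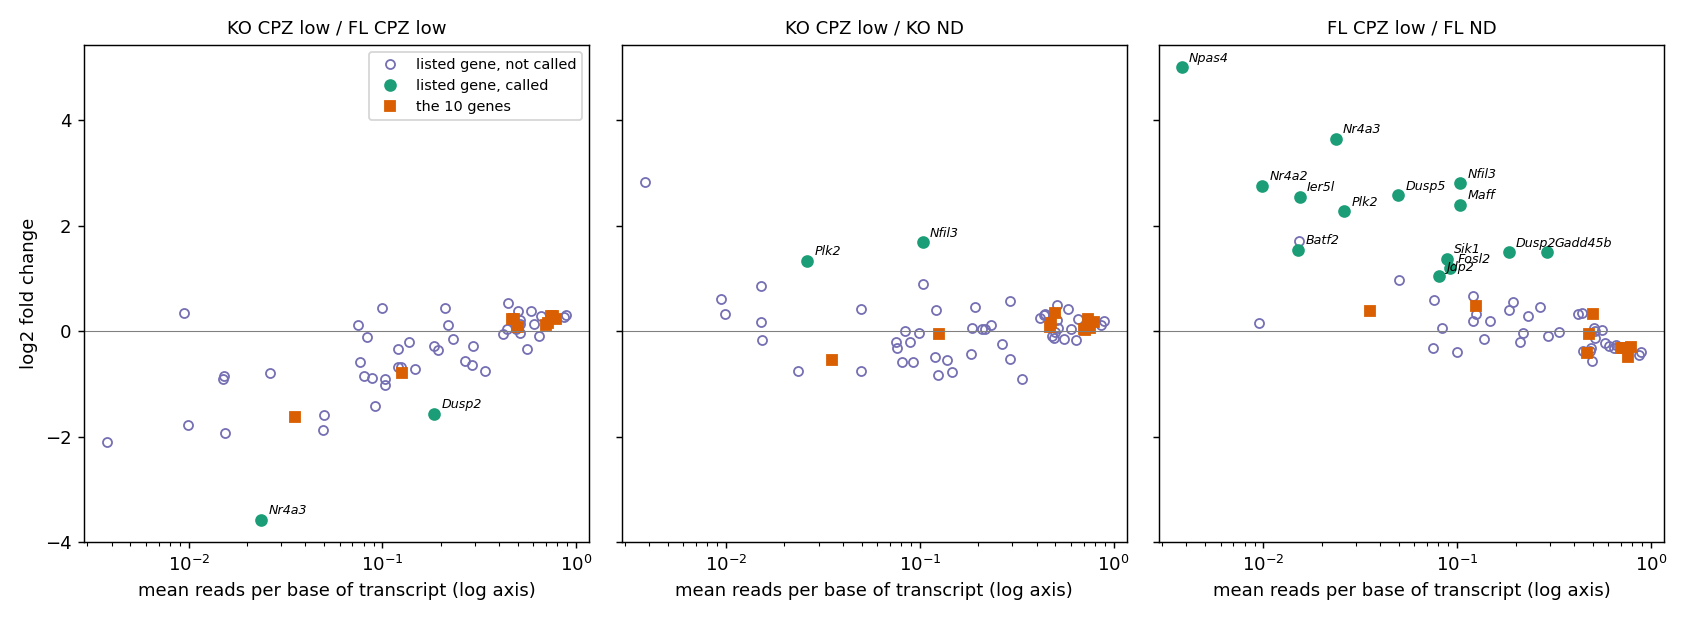
Log2 fold change against mean reads per base (log axis) for the other AP-1 and other immediate early genes (circles, filled and named where called) and the 10 genes (orange squares) in KO CPZ low against FL CPZ low, KO CPZ low against KO ND, and FL CPZ low against FL ND. Called genes lie at 0.291 reads per base or below, and 8 of the 10 squares lie at the dense end. Those 8 run from 0.09 to 0.29 in KO CPZ low against FL CPZ low and from 0.02 to 0.34 in KO CPZ low against KO ND. In FL CPZ low against FL ND they run from -0.48 (Jun) to 0.33 (Ier2). Egr2 and Egr3 lie at lower density.

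Of 11 tested other AP-1 family genes, 4 were called higher in FL CPZ low against FL ND (all genes 8.73%): Maff, a small MAF protein without a transactivation domain (453 in FL CPZ low, against 120, 58.2 and 88.5 in FL ND), Batf2 (1.54 ± 0.47), Fosl2 (1.19 ± 0.28) and Jdp2 (1.04 ± 0.30), of which only the Maff call held under every alternative. Maff alone was called in FL CPZ high against FL ND (2.02 ± 0.30; all genes 9.04%), and none was called in KO CPZ low against KO ND. Batf fell in FL CPZ high against FL CPZ low (11 and 102 reads, -1.78 ± 0.38), a call lost without FL ND replicate 2 or KO ND replicate 2. Of 26 kinases and factors of the ERK, JNK, p38, SRF and CREB route, 1 was called on CPZ in each FL comparison, below the 12.8% (CD11c low) and 16.2% (CD11c high) of all genes called in either direction. Elk4, an ETS partner of SRF, was lower in CD11c low (-1.10 ± 0.31), a call lost without FL ND replicate 1, and Mapkapk2, the p38 effector kinase, was higher in CD11c high (1.15 ± 0.12). None passed between genotypes, but Elk4 in KO CPZ low against FL CPZ low (1.52 ± 0.37, adjusted p = 0.0518) was called higher under 11 of 17 alternatives, with adjusted p between 0.00781 and 0.267. Of 8 tested EGR corepressors and ERK feedback genes, Nab2, which EGR proteins induce and which represses them, was called higher in FL CPZ high against FL ND (1.09 ± 0.11), Dusp7 was lower in both FL CPZ groups (-1.15 ± 0.14 in high, -1.03 ± 0.14 in low) and Dusp4 higher in FL CPZ low (1.58 ± 0.51). The Dusp4 call was lost without FL ND replicate 2 or 3 and the Dusp7 call in FL CPZ low without FL ND replicate 2. Spry1, an inhibitor of receptor tyrosine kinase signalling, was lower in FL CPZ high (-1.80 ± 0.17) and KO CPZ low (-1.32 ± 0.18) than in normal-diet libraries of the same genotype, and also lower in FL CPZ high than in FL CPZ low (-1.12 ± 0.21). Spred2, of the same class, was higher in KO CPZ low than in FL CPZ low (1.19 ± 0.28).

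Genes that respond to cell dissociation did not move as 1 block. The study names Ccl3, Ccl4, Jun and Hspa1a as transcripts that enzymatic isolation can induce. It found no evidence in its single-cell data that they drove any particular cluster. It held genotype and condition, rather than isolation, to be the likely main drivers of its clusters. Hspa1a, the inducible HSP70 chaperone, had 267 in KO CPZ low, against 748 in FL CPZ high, 506 in FL CPZ low, 561 and 719 in KO ND and 772, 774 and 673 in FL ND. It fell in KO CPZ low against KO ND (-1.25 ± 0.16, adjusted p = 0.000718) and against FL CPZ high (-1.48 ± 0.19, adjusted p = 0.00188). Of 14 heat shock genes 5 were called lower in KO CPZ low against KO ND, where 3.37% of all genes were, Hsph1 (-1.75 ± 0.42) and Hspa1b (-1.65 ± 0.17) most. In KO CPZ low against FL CPZ low, the comparison in which Egr3 was called, 13 of the 14 were below 0 (median -0.56), Hspa1b was called lower (-1.35 ± 0.19) and Hspa1a was at -0.92 ± 0.19 (adjusted p = 0.0331). Against FL CPZ high, where Egr2 and Egr3 were called, 5 of the 14 were called lower. The KO CPZ library thus had the lowest Egr3, Egr2 and Hspa1a of the 8, and whether isolation had a part in the Egr3 and Egr2 values was not tested. Ccl3 and Ccl4 were not called in any comparison. Both lie at 0.48 to 0.71 reads per base in every library, like the dense members, and had 429 and 364 in KO CPZ low, 748 and 610 in FL CPZ high, and 414 and 344 in FL CPZ low. Of 15 chemokine and NF-kB genes of the dissociation response, 3 were called higher in each CPZ group against its normal-diet group, where 9.04% (FL CPZ high), 8.73% (FL CPZ low) and 5.1% (KO CPZ low) of all genes were. These were Ptgs2 and Cxcl2 in all 3, with Il1b in both FL groups and Ccl2 in KO, a call lost without KO ND replicate 2. Ptgs2, the inducible prostaglandin synthase and a known AP-1 target, rose most (4.58 ± 0.16 in FL CPZ high, 4.13 ± 0.16 in FL CPZ low, 3.05 ± 0.17 in KO CPZ low).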

How the data were processed

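Microglia of 8 libraries in 5 groups were profiled by bulk RNA sequencing. The deposited signal values are gene-level read counts that the authors multiplied by 1 factor per library in each of 6 comparison tables. Per the study's methods and the submitters' processing notes, reads were checked with FastQC 0.11.9, aligned with Bowtie2, freed of duplicates with SAMtools 0.1.19, counted over RefSeq transcripts with HOMER and compared with DESeq2. The tables' own fold changes and p-values were not used. The value of 1 read was found for each column, which gave whole reads (within 0.1 read) for 100% of low values, and 25157 of 25238 genes agreed between tables. The FL ND replicate 1 column of the third table, whose step is near 1, was left out of that check. Size factors were medians of ratios over all 8 libraries. Limma 3.58.1 (R 4.3.3, trended variance) was fitted to log2(value + 1) over all groups, leaving out genes whose mean was below 10, so a fold is on that scale and understates changes of low genes. Alternatives used edgeR 4.0.16 and DESeq2 1.42.0 on the recovered reads, other scalings, filters and pseudocounts (0.5 and 5), and each normal-diet library left out. Scripts were tested on simulated data. All 10 members are named, with up to 4 called genes of largest change per other list and comparison, and genes among the 3 nearest in pattern to Fos and Egr1, of which 1 is not reported here. The members and lists were chosen with earlier results of these data known. Intervals cover counting error only. The occupied-position correction is -length × ln(1 - reads / length), and it and the size factors from genes under 0.1 reads per base were chosen after seeing the data.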

Additional observations from a re-analysis of the deposited data

Results flagged for a closer look

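For 6 of the 10 genes the CPZ effect (CD11c low against normal diet) ran in opposite directions in KO and in FL microglia. The KO CPZ library lay beyond both KO ND libraries on one side, and the FL CPZ low library beyond all 3 FL ND libraries on the other. Some of these gaps were narrow, as for Jun in KO (2244 against 2231), Junb in FL (1188 against 1193) and Egr3 in FL (211.4 against 208.8). Others were wider, as for Egr3 in KO (67.6 against 97.1) and Jun in FL (1846 against 2138). The share of all genes with this arrangement was not counted. Tested genes as dense in reads as Fos, Jun, Junb and Jund also shifted in opposite directions. At 0.6 or more reads per base, their median CPZ effect was -0.36 in FL and 0.15 in KO on the log2 scale. At 0.4 to 0.6 it was -0.18 in FL and 0.14 in KO. The KO effect minus the FL effect was 0.54 for Fos, 0.54 for Jun, 0.48 for Junb, 0.48 for Jund, -0.53 for Egr2 and -0.94 for Egr3 on the log2 scale. The interaction was tested with limma and passed for none of them, with adjusted p between 0.182 (Egr3) and 0.418 (Egr2). After correction for occupied positions the values were 0.42 for Fos, 0.42 for Jun, 0.21 for Junb, 0.45 for Jund, -0.59 for Egr2 and -0.93 for Egr3. Jun then no longer ran in opposite directions, at -0.13 in KO and -0.55 in FL. Corrected values of FL CPZ low lay within the FL ND range for Fos (2536, against 2474 to 3696) and Junb (2707, against 2345 to 3501). For Jund the KO CPZ value (1656) lay between the KO ND values (1570 and 1676). Egr3 in FL CPZ low equalled the highest FL ND value (215.5). Egr2 kept the arrangement, at 530.7 against at most 497.7 in FL and 289.6 against at least 294.3 in KO.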

How the results depend on the processing

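Across 19 settings, 50 of 1400 recomputed fold changes of the 10 genes changed sign, none of them called under either setting, 17 with quantile normalisation and 13 with the correction for occupied positions. The count of the 10 genes called in FL CPZ high against FL CPZ low (1) was 0 under scaling to a common total, quantile normalisation, no filter, edgeR and the correction, and 4 with size factors from genes under 0.1 reads per base (range 0 to 1 when normal-diet libraries were left out in turn). In KO CPZ low against FL CPZ low (1, Egr3) it was 0 with no filter. In KO CPZ low against FL CPZ high (2) it was 1 under TMM, the common total, pseudocount 5, edgeR, DESeq2 and the correction, 0 with no filter, and 1 to 2 when libraries were left out. Leaving out libraries gave 0 to 1 in FL CPZ high against FL ND and 0 to 1 in the interaction, where Egr3 was called without FL ND replicate 1 (-1.12, adjusted p = 0.0415; range over alternatives 0.0415 to 0.677).

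Counts over all genes moved more. KO ND against FL ND (0 genes) gave 12 with no filter, 3 by DESeq2 and 0 to 37 when libraries were left out, 37 without KO ND replicate 2. With a mean of at least 50, which tests fewer genes, 765 genes replaced 1441 in FL CPZ low against FL ND, 1116 replaced 1824 in FL CPZ high against FL ND, 552 replaced 952 in KO CPZ low against KO ND (495 with no filter) and 58 replaced 97 in the interaction. FL CPZ high against FL CPZ low (216) gave 89 with quantile normalisation, 577 with no filter, 76 by DESeq2, and 135 (without FL ND replicate 2) to 366 (without FL ND replicate 1). KO CPZ low against FL CPZ low (244) gave 443 with quantile normalisation, 467 by edgeR, 128 by DESeq2, and 169 to 486 (without FL ND replicate 1). KO CPZ low against FL CPZ high (433) gave 186 by DESeq2. The interaction gave 161 with quantile normalisation, 287 with no filter, 233 by edgeR, and 20 (without KO ND replicate 2) to 200 (without FL ND replicate 1), with 32 without FL ND replicate 2 and 59 without KO ND replicate 1. The cause of these moves was not tested.

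The share of called genes that were higher depended on the scaling. It was 68.1% in FL CPZ low against FL ND (50% with quantile normalisation), 55.6% in FL CPZ high against FL ND (44.6% with a common total), 35.6% in FL CPZ high against FL CPZ low (3.86% with a common total, 15.7% with quantile normalisation), 44.7% in KO CPZ low against FL CPZ low (29.6% with a common total) and 64.7% in KO CPZ low against FL CPZ high (81.7% with a common total). A common total also moved the median of all genes to -0.232 in FL CPZ high against FL CPZ low, -0.152 in FL CPZ high against FL ND and 0.144 in KO CPZ low against FL CPZ high. No label says that the replicate numbers of the normal-diet libraries mark a shared animal or batch, and deviations of same-numbered libraries correlated at 0.0291 and -0.0709. With a replicate block 0 genes and 0 of the 10 members were called in KO ND against FL ND, with Egr3 at -0.76, Egr2 at -0.33 and Fos at -0.37.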
